A study of Mus musculus with 12 samples.

Results

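Oligodendrocytes are the cells that wrap axons of the brain in myelin, and 35 genes of this lineage were followed in 2 brain regions, hippocampus and cerebellum, of mice with a Syt14 knockout and of wild-type mice. The 35 are named markers of the lineage, set by a rule that uses no value of these files but was proposed with earlier results of these data known. Each was found once among the 54446 gene identifiers of the count tables. They comprise 14 genes of the myelin membrane and its structure, 5 of lipid enzymes, metabolism and transport, 5 transcription factors, 6 receptors, cytoskeletal and other genes of mature cells, and 5 genes of precursors and newly formed oligodendrocytes. The first 30 are called the mature members below.

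RNA-seq libraries came from 3 Syt14 KO and 3 WT mice, and every animal gave both a hippocampus and a cerebellum, which makes 12 libraries in 4 groups of 3: Syt14 KO hippocampus, WT hippocampus, Syt14 KO cerebellum and WT cerebellum. Syt14 encodes a synaptotagmin, a family of proteins of membrane traffic. The labels give the genotypes as SYT14 knockout and wild type; which part of the gene was altered, and the strain, age and sex of the animals, are not stated in the labels. The comparison between genotypes asks whether transcript levels changed without Syt14 in either tissue.

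Oligodendrocytes arise from dividing precursors that carry the PDGF receptor Pdgfra and the proteoglycan Cspg4, also called NG2. Committed cells leave the cycle, pass through a short stage marked by Gpr17, Bcas1 and Enpp6, and then make large amounts of a few membrane proteins and galactolipids under the transcription factors Sox10, Olig2 and Myrf. Fibre tracts such as the white matter of the cerebellar core are rich in mature cells, and grey matter holds fewer. In bulk tissue, fewer cells of a type and less RNA per cell cannot be told apart.

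Library totals were 24355572 to 34971359 counts, and 17693 to 19027 genes were tested, depending on the comparison. Syt14 itself lay lower in each knockout library of a tissue than in each wild-type library of it, with 28.02 to 30.6 CPM (counts scaled to the size of the library) in Syt14 KO hippocampi against 38.2 to 38.9 in WT hippocampi, and 30.3 to 30.7 in Syt14 KO cerebella against 33.4 to 38.2 in WT cerebella. The transcript was thus reduced, not absent, and its difference did not pass the test over all genes in the hippocampus (adjusted p = 0.686) or the cerebellum (adjusted p = 0.644, edgeR quasi-likelihood test with Benjamini-Hochberg adjustment). Neurons of the labelled region marked each tissue: summed over 6 genes, cerebellar markers came to 3676 to 4268 CPM in cerebella and 127 to 157 CPM in hippocampi. The 6 hippocampal markers were less exclusive, at 696 to 745 CPM in hippocampi and 119 to 140 CPM in cerebella. The 8 genes of the Schwann cell list, which would mark peripheral nerve, summed to 52.05 to 64.0 CPM in hippocampi and 38.7 to 46.2 CPM in cerebella. Most of that was Sox2, which stem cells and astrocytes also express, at 45.8 to 54.7 CPM in hippocampi and 35.7 to 43.3 CPM in cerebella. Of the rest, Foxd3 was at 0 in all 12 libraries and Pmp2 at no more than 0.0394 CPM. Others were detected, with Prx at 3.11 to 3.86 CPM in hippocampi and 0.730 to 1.51 CPM in cerebella. Ncmap was at 0.266 to 0.512 CPM and 0.716 to 1.98 CPM, and Egr2 at 1.65 to 7.23 CPM and 0 to 0.299 CPM, in the same order. In the hippocampus Egr2 had a log2 fold change of 0.90 in Syt14 KO over WT (adjusted p = 0.995, edgeR). Libraries also differed in what lay next to the dissected piece. Choroid plexus markers summed to 1548, 2914 and 184.7 CPM in the Syt14 KO cerebella, against 3377, 4432 and 1906 CPM in WT cerebella, so that knockout cerebellum 3 stood apart. Syt14 KO hippocampus 2 carried thalamic transcripts, with Prkcd at 76.99 CPM against 21.02 to 25.01 CPM in the other hippocampi. The main counts of members are given with and without these libraries.

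The promoters printed here belong to members compared with a pattern described further on. It is the shared rise and fall of myelin genes between libraries, widest in the hippocampus. Of the members with a usable promoter, Ermn, Mal and Plekhh1 had the highest correlation with it and Enpp6 and Pdgfra, both of early stages, the lowest. Enpp6 still followed it in part. Usable members had a single promoter window that did not enter the gene, and lay on a chromosome other than 18. Cspg4, Gpr17, Trf, Olig2, Gsn, Ppp1r14a and Gjb1, with lower correlations than Enpp6, were not among them. Of these, Trf, Olig2, Gsn, Ppp1r14a and Gjb1 are mature members. The sequences are RefSeq's for build GRCm38.p6, each the 250 bases before the gene's start, written 5′ to 3′ on the gene's strand. Capitals mark the SOX core motifs ACAAAG and ACAATG and the E-box forms CAGCTG and CATCTG, searched on both strands; CAGCTG reads alike on both, and no marked motifs overlap. Ermn lies at chr2:58052865-58053114, minus strand, Mal at chr2:127656696-127656945, minus strand, Plekhh1 at chr12:79028913-79029162, plus strand, Enpp6 at chr8:46986637-46986886, plus strand, and Pdgfra at chr5:75152001-75152250, plus strand.
Ermn: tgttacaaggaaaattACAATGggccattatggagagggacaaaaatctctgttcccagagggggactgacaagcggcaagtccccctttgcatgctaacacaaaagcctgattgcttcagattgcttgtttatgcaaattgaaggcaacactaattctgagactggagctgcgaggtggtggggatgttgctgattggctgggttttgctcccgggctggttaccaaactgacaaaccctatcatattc
Mal: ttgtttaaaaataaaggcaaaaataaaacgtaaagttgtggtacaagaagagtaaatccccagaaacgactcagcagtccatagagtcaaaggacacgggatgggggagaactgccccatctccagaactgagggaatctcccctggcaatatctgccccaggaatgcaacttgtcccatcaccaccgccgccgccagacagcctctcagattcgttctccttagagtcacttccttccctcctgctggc
Plekhh1: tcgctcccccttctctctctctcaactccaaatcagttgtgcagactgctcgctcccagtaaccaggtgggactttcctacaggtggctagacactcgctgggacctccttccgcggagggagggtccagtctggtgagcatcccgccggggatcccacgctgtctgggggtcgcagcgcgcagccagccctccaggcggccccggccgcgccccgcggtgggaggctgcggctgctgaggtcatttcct
Enpp6: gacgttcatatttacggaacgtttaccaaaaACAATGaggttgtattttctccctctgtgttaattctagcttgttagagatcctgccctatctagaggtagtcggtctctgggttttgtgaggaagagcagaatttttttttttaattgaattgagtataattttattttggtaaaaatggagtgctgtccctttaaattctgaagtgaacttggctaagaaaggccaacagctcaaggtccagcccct
Pdgfra: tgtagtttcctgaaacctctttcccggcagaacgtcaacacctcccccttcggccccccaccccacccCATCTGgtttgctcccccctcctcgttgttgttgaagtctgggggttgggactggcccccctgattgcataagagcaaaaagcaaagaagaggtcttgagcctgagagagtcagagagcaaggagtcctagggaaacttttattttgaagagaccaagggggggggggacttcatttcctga

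Ermn and Enpp6 each held 1 ACAATG, Pdgfra held 1 CATCTG, and Mal and Plekhh1 held none of the 4 motifs. The table matched 24 of the 35 members with 32 windows. A SOX core was in 13 of the 32 member windows (40.6%), against 25.2% of all 32851 windows, and one of the E-box forms was in 11 (34.4%), against 25.5%. These are matches of letters in short windows, with no measure of binding.

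Levels between genes are compared per kilobase of exon (FPKM), and all other levels are CPM scaled by the TMM method. Mbp, whose basic protein holds the cytoplasmic faces of the myelin membrane together, had the highest level of the 35 in all 4 groups, with a mean of 306 FPKM in Syt14 KO hippocampus, 309 in WT hippocampus, 361 in Syt14 KO cerebellum and 323 in WT cerebellum. Mobp, another small basic protein of compact myelin, and Cnp, a phosphodiesterase of the uncompacted cytoplasmic channels, came next in every group, at 119.5, 123, 121 and 109 FPKM and 87.8, 92.9, 103 and 105 FPKM in the same order of groups. Within its role the highest was Car2, a carbonic anhydrase, among the metabolic genes (mean over the groups 75.3 FPKM), Olig1 among the transcription factors (42.9 FPKM), Gsn, an actin-severing protein, among the receptors and cytoskeletal genes (20.1 FPKM) and Bcas1 among the genes of early stages (35.7 FPKM). Cspg4 and Trf, the iron carrier transferrin, were at the low end, with 1.20 FPKM for Cspg4 in Syt14 KO cerebellum and 0.963 in WT cerebellum. For Trf, 63.5% of the exon length is shared with a readthrough gene on the same strand, and for Pllp 54.2% with an antisense gene, so their levels are uncertain.

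Summed over the 35 members, the levels came to 4816, 5973 and 6799 CPM in Syt14 KO hippocampi, against 6733, 5187 and 6003 CPM in WT hippocampi. The means were 5863 ± 996 and 5975 ± 773 CPM (SD, n = 3 each), and the knockout range enclosed the wild-type range. In the cerebellum the sums were 6268, 6636 and 6083 CPM in the Syt14 KO animals, against 5590.4, 5972 and 5762 CPM in the WT animals. Here the means were 6329 ± 282 and 5775 ± 191.4 CPM (SD, n = 3 each), and each knockout sum lay above each wild-type sum. Mbp made up a large part of all these sums. Its means were 2588 and 2613 CPM in Syt14 KO and WT hippocampi, and 3058 and 2733 CPM in Syt14 KO and WT cerebella. As a share of the raw counts of a library, the 35 genes made up a mean of 0.559% in Syt14 KO hippocampus, 0.568% in WT hippocampus, 0.667% in Syt14 KO cerebellum and 0.603% in WT cerebellum.

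**Figure D1:**
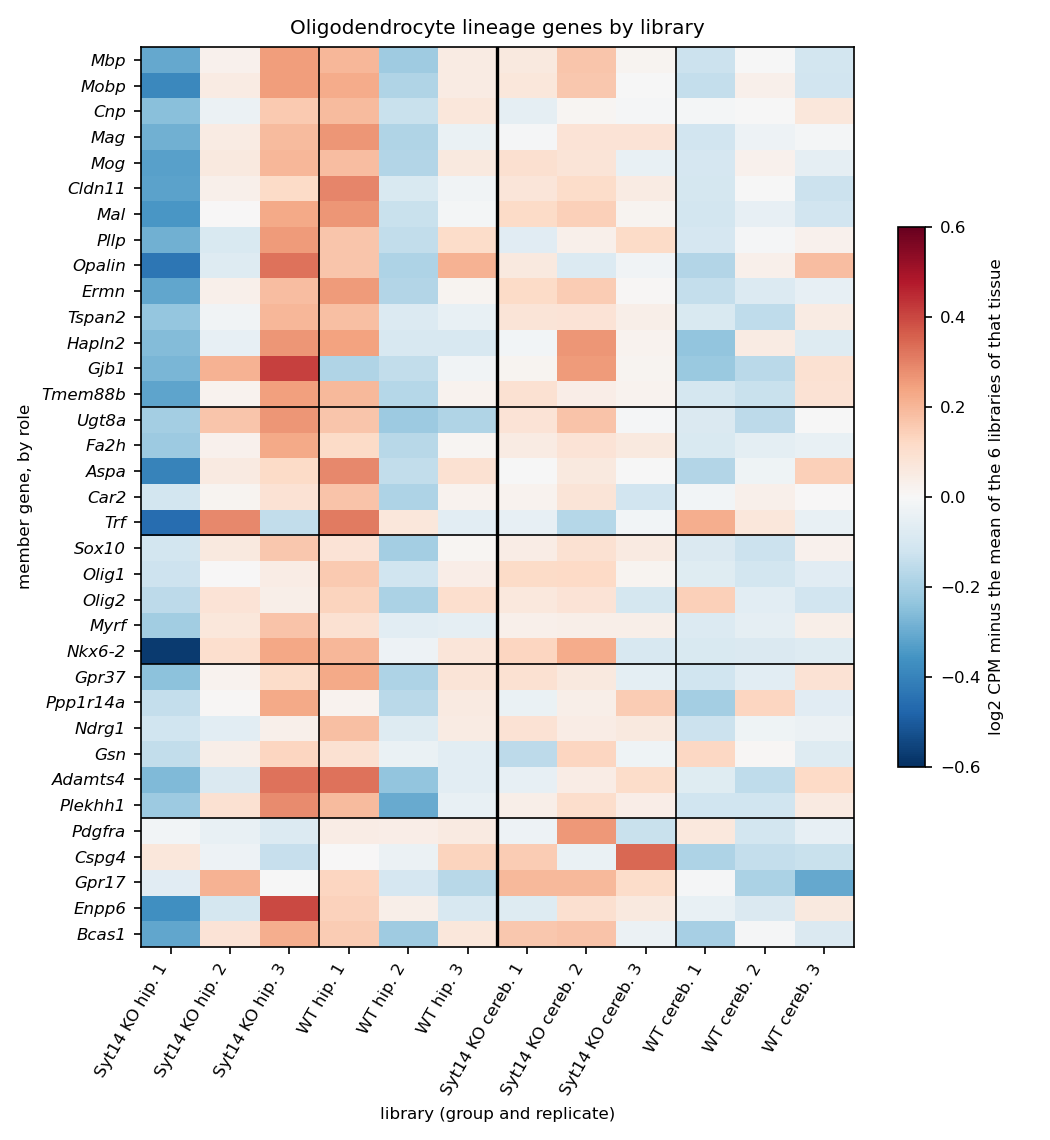
Level of each of the 35 members (rows, by role, with lines between roles) in each of the 12 libraries (columns), as log2 CPM minus the mean of the 6 libraries of that tissue. Syt14 KO hippocampus 1 is low in nearly all mature members and Syt14 KO hippocampus 3 and WT hippocampus 1 are high, while the cerebellar libraries differ by less and most members are higher in the 3 Syt14 KO cerebella.

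In the hippocampus, no member passed the test between Syt14 KO and WT: 0 of 35 had an adjusted p under 0.05 (edgeR quasi-likelihood test), against 0 of 17693 genes tested (0.0%). The lowest adjusted p of a member was 0.995, and DESeq2 and limma-voom also called 0 members. Without adjustment, 0 members were under 0.05 in either direction, against 2.57% of all genes higher and 1.77% lower. The median log2 fold change of the 35 was -0.03, with 10 above 0 and 25 below, beside a median of 0.00 over all genes. By role the medians were -0.04 for the 14 myelin genes, -0.01 for the lipid and metabolic genes, -0.03 for the transcription factors, 0.00 for the receptor and cytoskeletal group and -0.01 for the early-stage genes.

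That small negative median rested on single libraries. Without Syt14 KO hippocampus 1 it was 0.09, with 29 of 35 above 0, and without WT hippocampus 1 it was 0.06, with 26 above 0. Without Syt14 KO hippocampus 3 it was -0.14, and without WT hippocampus 2 it was -0.12. Leaving out Syt14 KO hippocampus 2, the library with thalamic transcripts, gave -0.04, and no member passed the test in any of these 5 fits.

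Pdgfra, the receptor by which precursors respond to PDGF, was the 1 member whose hippocampal groups did not overlap. It had 62.5, 61.3 and 59.8 CPM in Syt14 KO hippocampi, against 65.2, 65.1 and 65.7 CPM in WT hippocampi, a log2 fold change of -0.09 ± 0.05 (SE) with an adjusted p of 0.995. Each knockout library lay below each wild-type library, by a small step. Over all genes, 4.68% had lower and 5.13% had higher knockout groups without overlap, while of the members 1 of 35 was lower and 0 were higher. Pdgfra also marks fibroblasts of the meninges, and 9 of the 10 meningeal genes followed had a negative fold change in the hippocampus, with a median of -0.57. That median rested on WT hippocampus 2, without which it was -0.09 with 3 of 10 above 0. The meningeal mean was 2.08, 2.28 and 2.50 log2 CPM in Syt14 KO hippocampi, against 2.50, 3.43 and 2.40 in WT hippocampi. With this mean as a covariate Pdgfra had a value of -0.10 (adjusted p = 0.993), and the median of the members was -0.08.

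Gjb1, a connexin of the channels through uncompacted myelin, had the largest positive value of the members. It was at 8.98, 12.6 and 14.4 CPM in Syt14 KO hippocampi, against 9.60, 9.81 and 10.7 CPM in WT hippocampi (0.26 ± 0.15 on the log2 scale, SE, adjusted p = 0.995). Knockout libraries 2 and 3 were above and knockout library 1 below all 3 wild-type libraries. Ugt8a, which makes galactosylceramide, had 51.2, 66.3 and 71.004 CPM in Syt14 KO hippocampi, against 66.4, 50.8 and 52.1 CPM in WT hippocampi (0.16 ± 0.12, adjusted p = 0.995), and the ranges crossed.

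Cldn11, the claudin of the tight junctions between myelin layers, stood at 89.5, 114 and 121 CPM in Syt14 KO hippocampi, against 137, 105 and 110.2 CPM in WT hippocampi (-0.11 ± 0.11, adjusted p = 0.995); leaving out knockout library 1 gave 0.00, and leaving out wild-type library 1 gave 0.01. For Ndrg1, a cytoplasmic protein induced by stress and during differentiation, the values were 89.98, 93.5 and 99.98 CPM in Syt14 KO hippocampi, against 111, 92.8 and 101 CPM in WT hippocampi (-0.10 ± 0.06, adjusted p = 0.995). Aspa, which splits N-acetylaspartate, had 13.9, 19.1 and 19.9 CPM in Syt14 KO hippocampi, against 22.4, 16.6 and 19.5 CPM in WT hippocampi (-0.14 ± 0.14, adjusted p = 0.995). In all 3 the lowest library was a knockout and the highest was WT hippocampus 1, with the other libraries mixed between. Sox10 averaged 45.02 ± 4.20 CPM in Syt14 KO hippocampi and 42.8 ± 4.32 CPM in WT hippocampi, and Gpr17 averaged 53.1 ± 5.46 and 49.9 ± 5.46 CPM (SD, n = 3 each), both within the spread of the replicates.

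**Figure D2:**
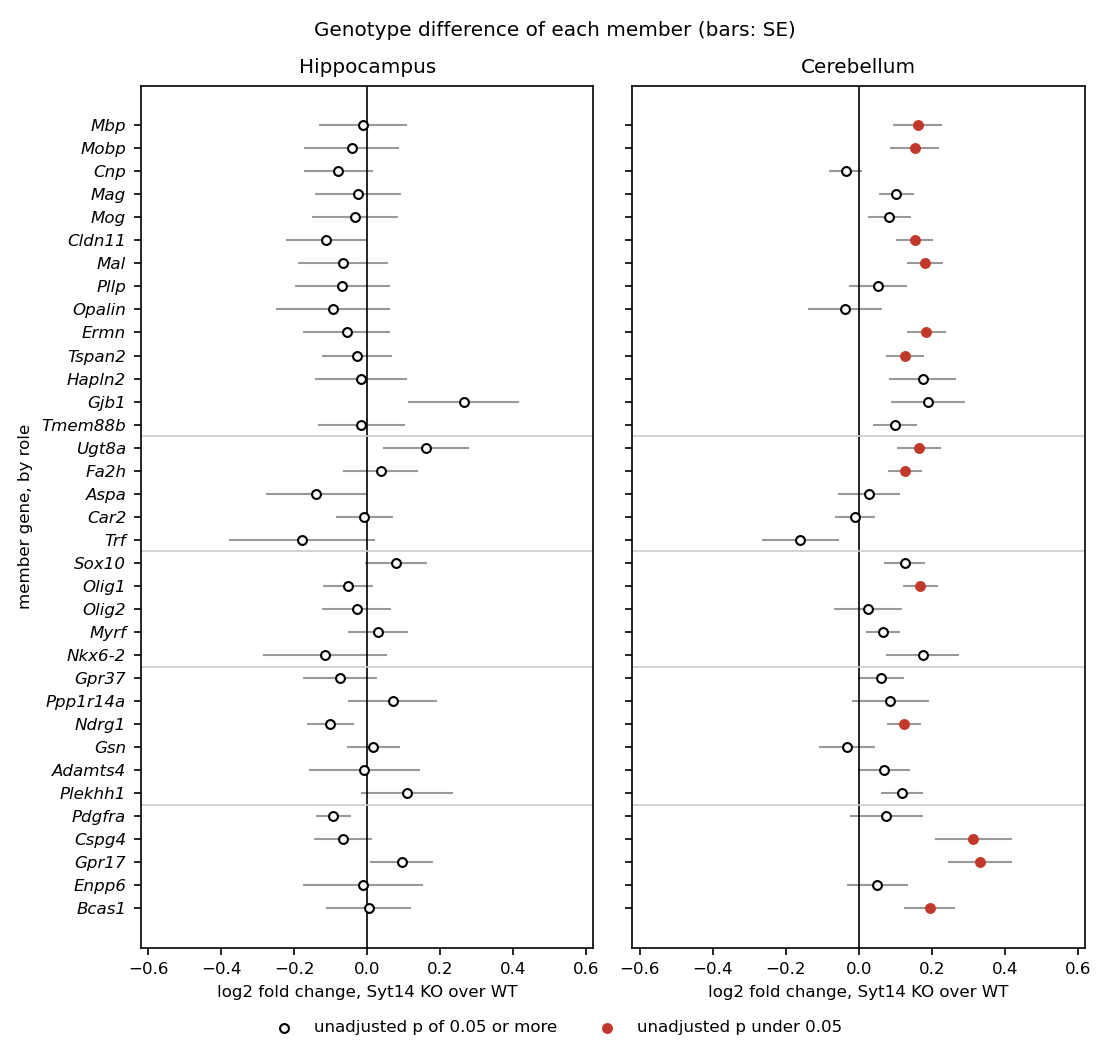
Log2 fold change of Syt14 KO over WT for each member (rows, by role) in hippocampus (left) and cerebellum (right), from the test on 3 libraries a group; bars are standard errors, and filled points have an unadjusted p under 0.05. Hippocampal values scatter around 0 with 10 of 35 above it, whereas 30 of 35 cerebellar values lie above 0 and 13 points are filled, none past the adjusted threshold.

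In the cerebellum the members lay mostly on the knockout side, by small amounts, and none passed the adjusted test. Of the 35, 30 had a positive fold change and 5 a negative one, with a median of 0.12, beside 0.00 over all 17733 genes tested, of which 51.0% were above 0. Adjusted over all genes, 0 of 35 members had a p under 0.05, against 2 genes in all (0.0113%), and the lowest adjusted p of a member was 0.602, that of Gpr17; DESeq2 and limma-voom called 0 members too. Without adjustment, 13 members (37.1%) were higher at p under 0.05, against 3.85% of all genes, and 0 were lower, against 2.92%. The knockout libraries all lay above the wild-type ones for 11 members (31.4%), against 6.48% of all genes, and all below for 0, against 5.4%. Members vary together between libraries, so these counts are not counts of independent genes.

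Early-stage genes had the largest cerebellar values. Gpr17, a receptor that marks committed cells before they myelinate, had 20.9, 20.8 and 19.7 CPM in Syt14 KO cerebella, against 18.1, 15.997 and 14.7 CPM in WT cerebella. Each knockout value lay above each wild-type value, and the fold change was 0.33 ± 0.09 (log2, SE), with an adjusted p of 0.602 and of 0.0357 when genes with low counts were kept in the test. Cspg4, the proteoglycan of precursors and of pericytes, had 14.2, 12.4 and 16.2 CPM in Syt14 KO cerebella, against 11.2, 11.6 and 11.6 CPM in WT cerebella (0.31 ± 0.10, adjusted p = 0.682). The groups did not overlap, and knockout library 3 was the highest. Bcas1, which marks cells at the start of myelination, had 145, 145.7 and 126 CPM in Syt14 KO cerebella, against 113, 129 and 122 CPM in WT cerebella (0.19 ± 0.07, adjusted p = 0.691, and 0.0429 with low genes kept). Here WT cerebellum 2 exceeded Syt14 KO cerebellum 3, so the ranges crossed. Pdgfra had 23.3, 28.4 and 21.7 CPM in Syt14 KO cerebella, against 24.8, 21.98 and 22.98 CPM in WT cerebella (0.08 ± 0.10), and Enpp6, a choline phosphodiesterase of newly forming cells, averaged 15.6 ± 0.970 and 15.1 ± 0.799 CPM (SD, n = 3 each). Neither differed by more than its replicates did.

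Among the 14 myelin genes 12 had a positive cerebellar value and 6 had an unadjusted p under 0.05: Mbp, Mobp, Cldn11, Mal, Ermn and Tspan2. Mal, a proteolipid of myelin membrane rafts, had 155, 157 and 144 CPM in Syt14 KO cerebella, against 132, 138 and 132 CPM in WT cerebella (0.18 ± 0.05, adjusted p = 0.612). For Ermn, an actin-binding protein of myelinating cells, the values were 87.3, 89.5 and 80.9 CPM in Syt14 KO cerebella, against 72.9, 76.001 and 77.7 CPM in WT cerebella (0.18 ± 0.05, adjusted p = 0.628). Cldn11 stood at 93.9, 96.1 and 92.3 CPM in Syt14 KO cerebella, against 82.9, 89.03 and 81.5 CPM in WT cerebella (0.15 ± 0.05, adjusted p = 0.681). In these 3 genes no knockout cerebellum reached down into the wild-type range. Mbp had 3013, 3244 and 2918 CPM in Syt14 KO cerebella, against 2640.0, 2882 and 2677 CPM in WT cerebella (0.16 ± 0.07, adjusted p = 0.714), again without overlap but with only a narrow gap. Mobp, by contrast, overlapped, since WT cerebellum 2 was above Syt14 KO cerebellum 3. Cnp and Opalin, a glycoprotein of the paranodal loops, were the 2 myelin genes with a negative value, -0.04 ± 0.05 and -0.04 ± 0.10 (log2, SE).

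Of the lipid and metabolic genes, Ugt8a had 77.6, 82.5 and 72.8 CPM in Syt14 KO cerebella, against 68.9, 65.6 and 73.05 CPM in WT cerebella (0.17 ± 0.06, adjusted p = 0.691), with knockout library 3 just inside the wild-type range. Fa2h, which hydroxylates the fatty acids of the same galactolipids, had 49.5, 50.7 and 49.7 CPM in Syt14 KO cerebella, against 44.9, 45.9 and 46.4 CPM in WT cerebella (0.13 ± 0.05, adjusted p = 0.691). Its groups were apart. Aspa, Car2 and Trf had values of 0.03 ± 0.09, -0.01 ± 0.06 and -0.16 ± 0.11, with overlapping groups.

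All 5 transcription factors had a positive cerebellar value, and Olig1 had the smallest p. It had 79.98, 80.2 and 74.8 CPM in Syt14 KO cerebella, against 70.2, 68.4 and 70.5 CPM in WT cerebella (0.17 ± 0.05, adjusted p = 0.628), with no overlap. Sox10, which drives myelin genes from the precursor stage on, had 35.3, 36.4 and 35.5 CPM in Syt14 KO cerebella, against 32.2, 31.2 and 34.8 CPM in WT cerebella (0.13 ± 0.06, adjusted p = 0.736), also apart. Olig2, which specifies the lineage, had 17.3, 17.6 and 15.4 CPM in Syt14 KO cerebella, against 18.3, 15.9 and 15.3 CPM in WT cerebella (0.03 ± 0.09), and here WT cerebellum 1 was the highest of the 6. Myrf, the factor that switches on the myelin programme, and Nkx6-2, a homeobox factor of mature cells, had 0.07 ± 0.05 and 0.18 ± 0.10. Among the receptor and cytoskeletal genes, Ndrg1 had 98.3, 95.5 and 96.3 CPM in Syt14 KO cerebella, against 84.6, 91.001 and 90.2 CPM in WT cerebella (0.13 ± 0.05, adjusted p = 0.691), without overlap, and the other 5 ran from -0.03 (Gsn) to 0.12 (Plekhh1).

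**Figure D3:**
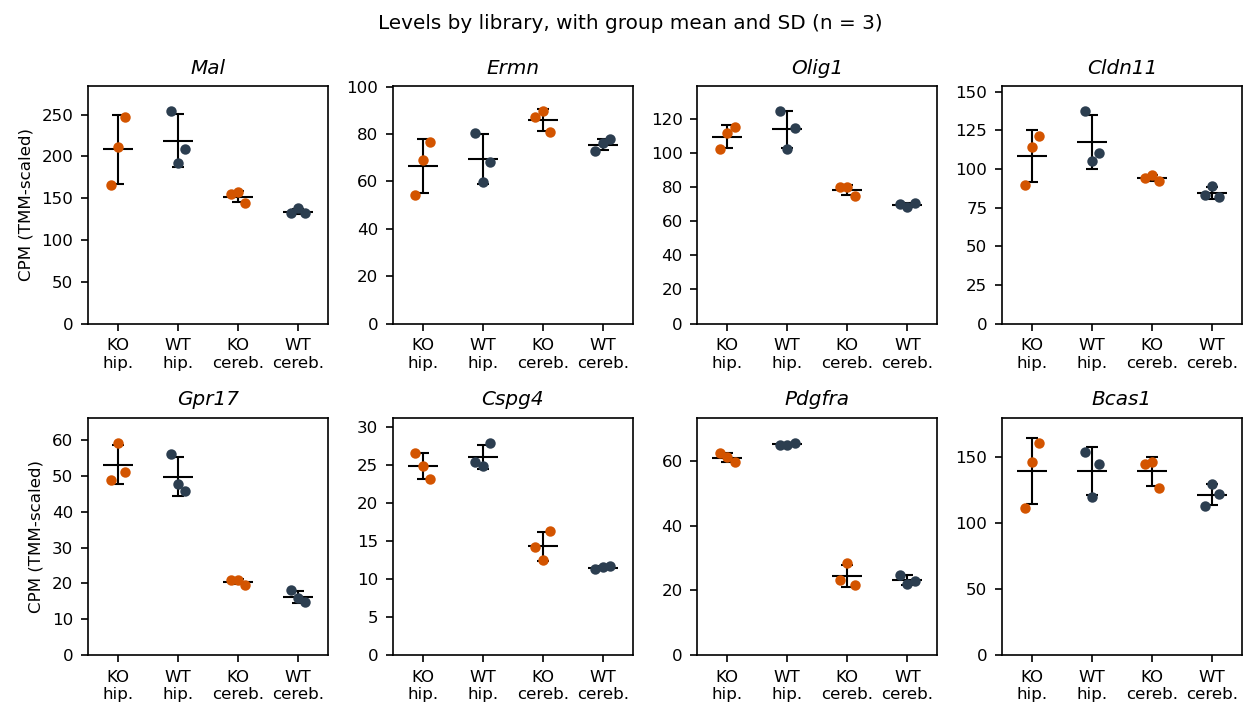
Level (CPM, TMM-scaled, axis from 0) of 8 members in each library, with the 3 libraries of a group as points and the group mean and SD as bars. Mal, Ermn, Olig1, Cldn11, Gpr17 and Cspg4 have Syt14 KO cerebella above WT cerebella without overlap, and Gpr17, Cspg4 and Pdgfra are far higher in hippocampus than in cerebellum.

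Transcripts of other cells also differed between the same cerebella, some between the genotype groups and some between single libraries. No gene of the cell lists followed here passed the adjusted edgeR test. Brainstem neuron markers had a mean of 0.43, 0.83 and -1.96 log2 CPM in Syt14 KO cerebella, against -0.93, -1.60 and -1.55 in WT cerebella. Knockout cerebella 1 and 2 were thus high, with Slc6a2, the noradrenaline transporter, at 6.37, 14.5 and 0.232 CPM in Syt14 KO and 1.98, 0.431 and 0.517 CPM in WT cerebella, and knockout cerebellum 3 was low. The 12 microglial markers had a mean of 3.32, 3.28 and 3.21 log2 CPM in Syt14 KO cerebella, against 3.01, 3.03 and 3.14 in WT cerebella, which did not overlap. The complement gene C1qa was at 13.6, 15.2 and 13.98 CPM in Syt14 KO and 8.24, 10.8 and 10.8 CPM in WT cerebella (0.51 ± 0.12, adjusted p = 0.490, edgeR). The 12 endothelial and pericyte markers were also apart by a small step, at 5.15, 5.10 and 5.11 log2 CPM in Syt14 KO cerebella against 5.06, 5.03 and 5.04 in WT cerebella, with 9 of 12 fold changes above 0. Of 12 astrocyte markers 6 were above 0, and the filament gene Gfap was at 202, 209.9 and 196.02 CPM in Syt14 KO cerebella, against 176, 162 and 151 CPM in WT cerebella (0.32 ± 0.06, adjusted p = 0.276), without overlap. Over all genes tested, 6.48% had Syt14 KO cerebella above WT cerebella without overlap, as C1qa and Gfap had. The part of the endothelial, pericyte and astrocyte transcripts in the members' values was not tested. With the brainstem mean as a covariate the members' median was 0.11, with 7 members at an unadjusted p under 0.05. With the microglial mean as a covariate it was -0.003, with 17 of 35 above 0, 1 member higher and 1 lower at an unadjusted p under 0.05; since that mean itself separated the genotypes, the covariate and the genotype cannot be told apart in 6 libraries.

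The cerebellar median kept its sign when any 1 library was left out, at 0.09 to 0.14. Without Syt14 KO cerebellum 3, the library with little choroid plexus and few brainstem transcripts, it was 0.13, with 14 members at an unadjusted p under 0.05. The count was 7 without Syt14 KO cerebellum 2, 6 without WT cerebellum 1, 17 without WT cerebellum 3 and 3 in a fit of all 12 libraries. With the replicate number as a block, 36 genes in all passed the adjusted test in place of 2, and 0 members did. In that fit 15 members were higher and 0 lower at an unadjusted p under 0.05 (edgeR), against 847 and 821 of 17733 genes.

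The difference between tissues was tested directly in a fit of all 12 libraries. Of 35 members, 32 had a knockout effect that was lower in the hippocampus than in the cerebellum, with a median difference of -0.12 on the log2 scale, beside 0.00 over all 19027 genes. In edgeR 0 members passed the adjusted test, as in DESeq2 and limma-voom, against 2 genes in all (0.0105%), and the lowest adjusted p of a member was 0.896. Without adjustment, 3 members were lower (8.57%), against 3.08% of all genes, and 0 were higher, against 2.26%. These were Cspg4 (-0.38 ± 0.13, adjusted p = 0.896), Ndrg1 (-0.23 ± 0.09, adjusted p = 0.897) and Olig1 (-0.22 ± 0.09, adjusted p = 0.897). The median was -0.01 without Syt14 KO hippocampus 1, -0.04 without WT hippocampus 1, -0.26 without Syt14 KO hippocampus 3 and -0.21 without WT hippocampus 2, so it too depended on the spread of the hippocampal libraries. Without Syt14 KO hippocampus 2 it was -0.15, and without Syt14 KO cerebellum 3 it was -0.13, with 0 members called and 44 genes called in all in that second fit. The main fit left the 2 tissues of an animal unpaired, and with the animal as a block the median was -0.13, with 0 members called. The difference is built from the same libraries as both comparisons above and adds no samples to them.

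Genes of the lineage outside the 35 were followed in 4 lists, and 0 of their genes passed the adjusted test in either tissue. In the cerebellum, the other mature genes had 27 of 36 above 0 and a median of 0.04, the other precursor and differentiating genes 16 of 26 and 0.04, the enzymes of myelin lipid synthesis 20 of 27 and 0.03, and the genes of the node and of axon-glia contact 11 of 19 tested and 0.02, beside 51.0% of all genes above 0. In the hippocampus the same lists had 14 of 36 above 0 with a median of -0.02, 16 of 26 with 0.01, 22 of 27 with 0.08 and 9 of 20 with -0.01, beside 50.8% of all genes. At an unadjusted p under 0.05, 6 of the 36 other mature genes were higher in Syt14 KO cerebella and 0 lower, and 6 of the 26 precursor genes were higher and 1 lower, against 3.85% of all genes higher and 2.92% lower. Without Syt14 KO cerebellum 3 the other mature genes had 8 higher and 0 lower with a median of 0.08, the precursor genes 6 and 1 with a median of 0.04, and the lipid enzymes 5 and 0, against 2 and 0 with it. Without Syt14 KO cerebellum 2 the other mature genes had 2 higher and 2 lower with a median of 0.003, and the lipid enzymes 0 and 2. The precursor genes had 1 higher and 0 lower without Syt14 KO cerebellum 1, and likewise without WT cerebellum 1. The counts of these lists thus depended on single libraries. With all 6 cerebella, those of the mature list included S1pr5 (0.17), Cryab (0.15), Qdpr (0.12) and Efnb3 (0.12), as log2 fold changes. Of the precursor ones, Neu4 (0.33) and Lhfpl3 (0.19) were among the 6, and Emid1 (-0.31) was the one that was lower. In the hippocampus, 6 of 27 lipid enzymes were higher and 0 lower by that measure, against 2.57% and 1.77% of all genes (5 and 0 without Syt14 KO hippocampus 2), among them Elovl1 (0.28), Mvd (0.27), Cyp51 (0.18), Msmo1 (0.12) and Sc5d (0.12). Most of these serve cholesterol synthesis, which neurons and astrocytes carry out as well.

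Between tissues, members differed in both directions, and Gpr17 and Pdgfra differed most. In Syt14 KO animals, 10 of 35 members were higher in hippocampus than in cerebellum at an adjusted p under 0.05, against 31.6% of 18200 genes, and 10 were lower, against 32.5%. In WT animals 13 were higher, against 33.1% of 18128 genes, and 9 were lower, against 33.0%. As shares of the members, 28.6% and 28.6% in Syt14 KO and 37.1% and 25.7% in WT lay near those backgrounds, so the number of regional calls is no result about the members. Without cerebellum 3, the Syt14 KO animals had 8 members called higher and 7 lower, and without hippocampus 2 they had 8 and 8. In both genotypes, 10 members were called higher in hippocampus (Mal, Opalin, Sox10, Olig1, Olig2, Myrf, Gpr37, Pdgfra, Cspg4 and Gpr17), 9 were called lower (Cnp, Hapln2, Gjb1, Ugt8a, Fa2h, Trf, Ppp1r14a, Adamts4 and Enpp6), and 0 were called in opposite directions. The fits behind these calls left the 2 tissues of an animal unpaired. With the animal as a block, Syt14 KO animals had 10 members higher and 11 lower, against 5565 and 5679 of 18200 genes. WT animals then had 12 higher and 11 lower, against 5970 and 5978 of 18128 genes. Hippocampal and cerebellar columns carry different tags that look like lanes, and if they are, tissue and lane cannot be told apart.

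The early-stage genes Gpr17 and Pdgfra had the largest hippocampal excess in both genotypes, and Cspg4 came next in WT animals. Gpr17 had 56.05, 47.8 and 45.7 CPM in WT hippocampi, against 18.1, 15.997 and 14.7 CPM in WT cerebella, and its log2 fold change was 1.37 ± 0.08 in Syt14 KO animals and 1.62 ± 0.09 in WT animals (SE; adjusted p = 4.29e-07 and 5.48e-09). For Pdgfra the values were 65.2, 65.1 and 65.7 CPM in WT hippocampi, against 24.8, 21.98 and 22.98 CPM in WT cerebella, with fold changes of 1.32 ± 0.09 in Syt14 KO animals and 1.50 ± 0.06 in WT animals (adjusted p = 1.48e-06 and 1.22e-10). Cspg4 had 25.4, 24.8 and 27.9 CPM in WT hippocampi, against 11.2, 11.6 and 11.6 CPM in WT cerebella, with 0.79 ± 0.10 in Syt14 KO animals and 1.18 ± 0.08 in WT animals (adjusted p = 1.15e-04 and 3.19e-08). All 6 hippocampal libraries exceeded all 6 cerebellar libraries in these 3 genes. Enpp6, although a gene of newly forming cells, ran the other way, with 12.6, 11.7 and 10.7 CPM in WT hippocampi, against 14.9, 14.4 and 15.99 CPM in WT cerebella (-0.37 ± 0.10, adjusted p = 0.00482). In Syt14 KO animals its value was -0.44 ± 0.17 (adjusted p = 0.0420), and that call was lost without hippocampus 1 or 2, without any 1 of the 3 cerebella and with a stricter filter on low counts, at adjusted p of 0.0505 to 0.134.

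Of the 5 transcription factors, 4 were called higher in hippocampus in each genotype, against 33.1% of all genes in WT and 31.6% in Syt14 KO animals. Olig2 had 31.98, 25.5 and 31.3 CPM in WT hippocampi, against 18.3, 15.9 and 15.3 CPM in WT cerebella (0.85 ± 0.10, adjusted p = 6.64e-06). Olig1 had 124, 102 and 115 CPM in WT hippocampi, against 70.2, 68.4 and 70.5 CPM in WT cerebella (0.71 ± 0.06, adjusted p = 5.89e-07). Both were apart in every library, and Sox10 (0.39 ± 0.08) and Myrf (0.27 ± 0.06) passed with smaller values, while Nkx6-2 (0.02 ± 0.10, adjusted p = 0.878) did not. In Syt14 KO animals the call of Myrf was lost in 6 of 14 alternatives.

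Myelin genes went both ways. Opalin had 29.1, 22.8 and 29.9 CPM in WT hippocampi, against 12.9, 14.9 and 16.6 CPM in WT cerebella (0.88 ± 0.12, adjusted p = 1.93e-05). Mal (0.71 ± 0.08) and Cldn11 (0.48 ± 0.08) were also higher in WT hippocampus. Gjb1 had 9.60, 9.81 and 10.7 CPM in WT hippocampi, against 16.99, 17.7 and 21.1 CPM in WT cerebella (-0.89 ± 0.10, adjusted p = 7.14e-06). Hapln2, a link protein of the matrix at nodes, had 32.8, 25.9 and 25.9 CPM in WT hippocampi, against 35.4, 43.2 and 39.6 CPM in WT cerebella (-0.48 ± 0.10, adjusted p = 7.33e-04). The most abundant myelin genes differed little by comparison, with -0.06 ± 0.08 for Mbp (adjusted p = 0.545) and -0.18 ± 0.07 for Cnp (adjusted p = 0.0389, but 0.0507 to 0.169 in 6 of 14 alternatives).

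No lipid or metabolic gene was higher in hippocampus. In each genotype 3 of 5 were called lower, against 33.0% of all genes in WT and 32.5% in Syt14 KO animals. Trf had 5.35, 4.52 and 4.13 CPM in WT hippocampi, against 10.6, 9.56 and 8.82 CPM in WT cerebella (-1.04 ± 0.13, adjusted p = 1.75e-05). Transferrin is also made by the choroid plexus, whose markers were far higher in the cerebellar pieces, and Trf was 8.80, 8.08 and 9.001 CPM in the Syt14 KO cerebella, of which the last held little choroid plexus. The part of choroid plexus in the Trf values was not tested. Ugt8a and Fa2h had -0.29 ± 0.09 and -0.27 ± 0.07 in WT animals. The call of Ugt8a was lost in 2 of 14 alternatives in WT and in 3 of 14 in Syt14 KO animals. Adamts4, a metalloprotease of maturing oligodendrocytes, had 47.3, 32.05 and 36.1 CPM in WT hippocampi, against 58.9, 55.7 and 67.3 CPM in WT cerebella (-0.65 ± 0.12, adjusted p = 2.73e-04). Ppp1r14a, an inhibitor of myosin phosphatase, was lower by a smaller step (-0.35 ± 0.11, adjusted p = 0.0150, but 0.0579 without WT hippocampus 2 and 0.073 without WT cerebellum 2), and Gpr37, a receptor that restrains differentiation, was higher (0.41 ± 0.09, adjusted p = 0.00114).

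**Figure D4:**
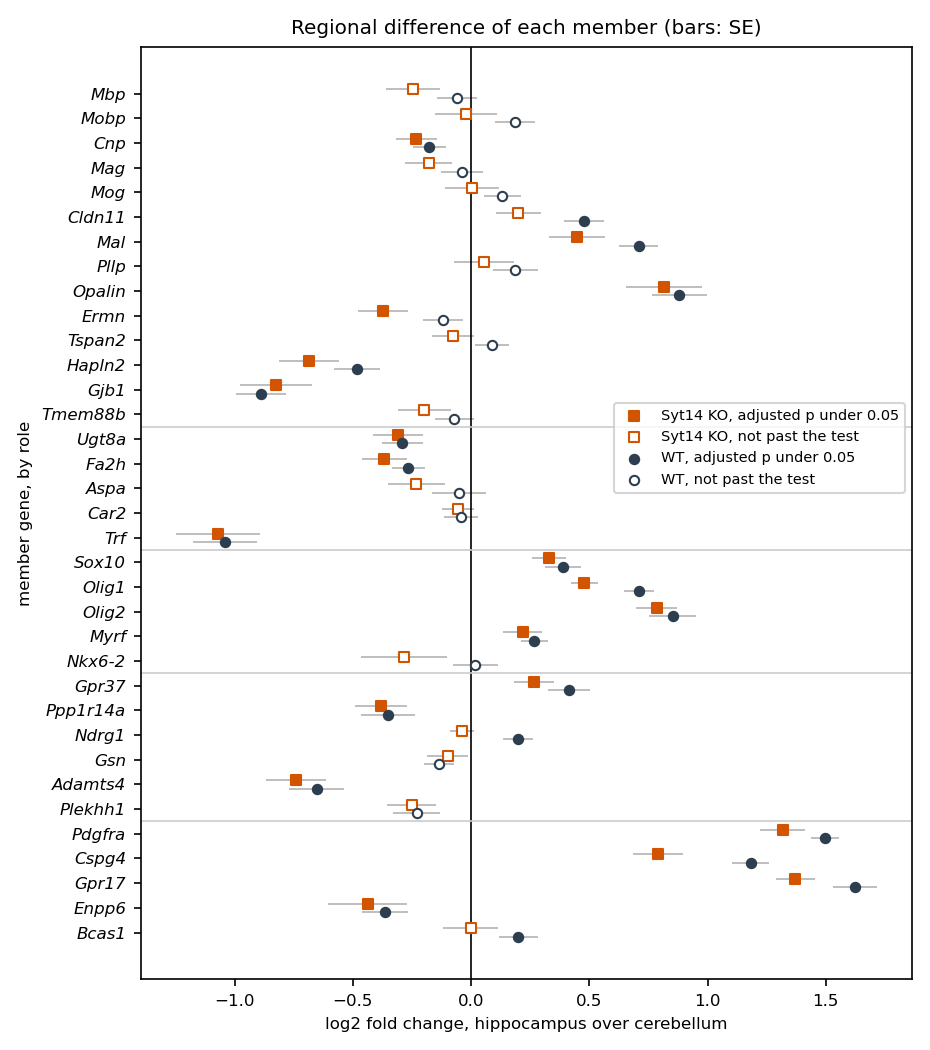
Log2 fold change of hippocampus over cerebellum for each member (rows, by role), in Syt14 KO (squares) and WT (circles) animals, with SE bars and filled symbols at an adjusted p under 0.05. Gpr17 and Pdgfra lie farthest to the right, at 1.32 to 1.62, Trf and Gjb1 farthest to the left, at -1.07 to -0.83, and most myelin genes lie between.

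Within each hippocampal group, mature members moved together. In the Syt14 KO hippocampus, library 1 was the lowest of the 3 in 30 of 30 mature members and library 3 the highest in 28. In the WT hippocampus, library 1 was the highest in 27 and library 2 the lowest in 26. The order was less uniform in cerebella. In the Syt14 KO cerebellum, library 3 was the lowest in 16 and library 2 the highest in 20. In the WT cerebellum, library 1 was the lowest in 18 and library 3 the highest in 18. The ratio of the highest to the lowest library had a median of 1.40 in Syt14 KO hippocampus and 1.28 in WT hippocampus, against 1.10 in Syt14 KO cerebellum and 1.11 in WT cerebellum. The genotype comparison in the hippocampus was thus made across a spread several times larger than its median fold change.

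Each gene's log2 CPM was centred within its group and set beside the mean of the 30 mature members over the 12 libraries, for the 12053 genes of at least 5 CPM. Ermn followed the mean with an r of 0.99 and a rho of 0.97, and 17 of the 30 mature members had an r over 0.9, the mean being built from them. Among mature members the lowest was Trf with an r of 0.47. The precursor genes did not follow it: r was 0.37 for Gpr17 (rho 0.36), -0.03 for Pdgfra (rho -0.08) and -0.39 for Cspg4 (rho -0.43), although Bcas1 and Enpp6 had 0.93 and 0.78. Leaving out Syt14 KO hippocampi 1 and 3, the libraries farthest from the median, gave an r of 0.98 for Ermn and 0.33 for Enpp6. Gpr17, Pdgfra and Cspg4 then had 0.41, 0.15 and -0.09. Of the mature members, Ppp1r14a, Gsn, Trf and Gjb1 were below Gpr17, at 0.40, 0.33, 0.32 and 0.26, and the rest were above it. WT hippocampi 1 and 2, whose mature mean lay 0.164 and -0.162 from that of their group, were still among the libraries kept. The r and rho values are descriptions over 12 libraries that share 6 animals, with no test.

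**Figure D5:**
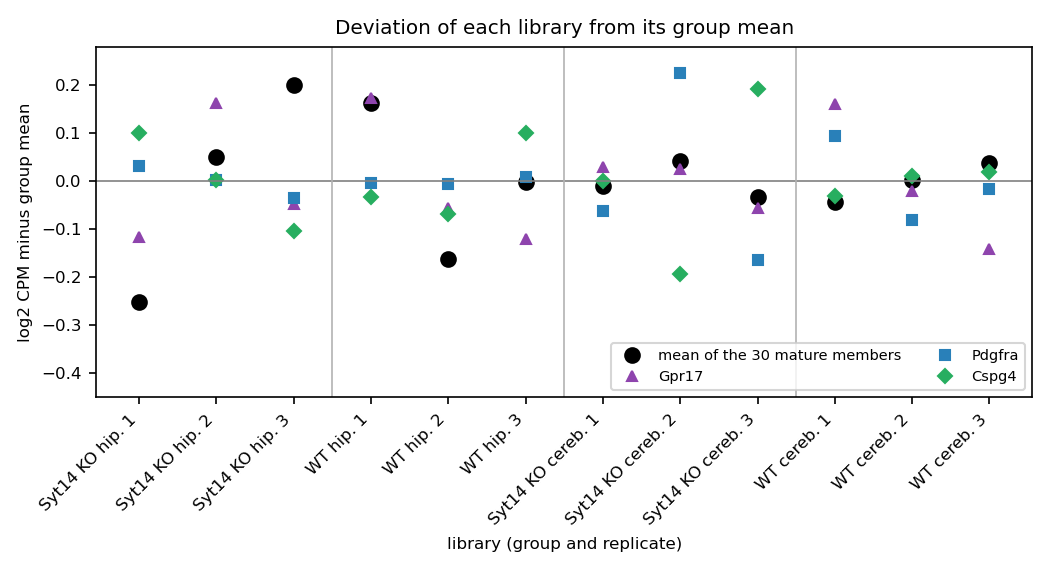
Deviation of each library from its group mean (log2 CPM) for the mean of the 30 mature members (black circles) and for Gpr17, Pdgfra and Cspg4. The mature mean runs from -0.25 to 0.20 in the Syt14 KO hippocampi and stays within 0.05 of 0 in the cerebella, and Pdgfra and Cspg4 do not move with it.

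Transcripts of neighbouring tissue varied between the same hippocampal libraries. Cortical markers had a mean of 5.17, 5.16 and 5.70 log2 CPM in Syt14 KO hippocampi, against 5.39, 5.24 and 5.55 in WT hippocampi. Knockout library 3 was the highest in both this and the mature mean, and WT library 2 was the lowest WT library in both. WT library 3 had the highest cortical mean of its group, but its mature mean lay -0.00233 from the group's. WT library 1 lay at 0.164. Knockout libraries 1 and 2 had close cortical means, with mature means -0.252 and 0.0509 from the group's. The part of cortical transcripts in the spread of the mature members was not tested. With the cortical mean as a covariate the members' median in the hippocampus was -0.01, with 14 of 35 above 0. The 12 endothelial and pericyte markers were lower in all Syt14 KO hippocampi, at 4.61, 4.83 and 4.81 log2 CPM against 4.90, 4.94 and 5.12 in WT hippocampi. The part of the endothelial and pericyte transcripts in the members' values was not tested.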

How the data were processed

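Poly(A) RNA of 12 libraries (3 animals in each of 4 groups) was made into strand-specific libraries by the dUTP method, per the labels' protocols. Per the submitters' processing notes, Trimmomatic 0.39, STAR 2.7.10 and featureCounts 2.0.3 were used with mm10 (GRCm38); the gene annotation and strand setting of that step were not given in the sources used here. Raw counts per gene were deposited by the authors, whose totals ran from 24355572 to 34971359 per library.

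The members and lists were chosen with earlier results of these data known, and the cortical and thalamic lists after seeing the data. Genes were kept by filterByExpr (minimum count 10), scaled by TMM and tested with edgeR 4.0.16 (glmQLFit, glmQLFTest) in R 4.3.3, for each tissue or genotype alone and for the difference in a fit of all 12 libraries, with Benjamini-Hochberg adjustment over all genes and a call at 0.05. CPM values share TMM factors over the 12 libraries; FPKM divides them by merged exon length in GENCODE M21, in which 54409 of 54446 identifiers were found. The steps were tested on simulated data. DESeq2 1.42.0, limma 3.58.1 (voom), other scalings and filters, covariates, blocks and fits without each library were alternatives.

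Members were named as the 8 with the smallest p in each genotype comparison, the 6 called members with the largest fold change in each direction between WT tissues and the highest FPKM of each role; further members were added once their values were known. A few genes outside the members that this rule would pick are not reported here. Same-numbered cerebella of the 2 genotypes deviated together (r = 0.26, 0.256 and 0.329 over 12053 genes), so by the rule used their replicate numbers, which come from the labels, count as pairs; the animals of the 2 genotypes differ. Replicates are separate animals.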

Additional observations from a re-analysis of the deposited data

How the results depend on the processing

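The lowest raw count of a member in any library was 75, and each group held 3 animals. Between hippocampi, the number of genes called was 4 with DESeq2, 77 with no filter on low counts, 2 with a replicate block, 11 with the cortical mean as a covariate and 0 to 2 when 1 library was left out, against 0; no member was among them. There the replicate numbers did not pair the libraries (r = -0.0805, 0.0197 and 0.189). Leaving out 1 library gave -0.2013 to 0.0102 for Cldn11 and -0.0007 to 0.1446 for Sox10, and the median of the members ran from -0.1441 to 0.0861. Between cerebella, 38 genes were called with DESeq2, 417 with no filter, 36 with a replicate block, 4 in a fit of all 12 libraries, 44 with the brainstem mean and 0 with the microglial mean as a covariate, and 2 to 33 without 1 library, against 2. Members called there were 2 with no filter (Gpr17 and Bcas1) and 0 otherwise. With the microglial mean the members' median was -0.003, and Bcas1 (-0.0106) and Ugt8a (-0.0449) turned negative; the cause was not tested. For the difference between tissues, 11 genes were called with DESeq2, 275 with no filter and 2 to 44 without 1 library, against 2, with 0 members in each. The block changed no other call by over 1.5 times. Adjusted p values that DESeq2 gave as missing were left so. Regional medians of the members stayed within the replicate spread, and their total call counts within 1.5 times, in every alternative run. By direction, members called in WT animals numbered 11 to 16 higher and 6 to 13 lower, and in Syt14 KO animals 8 to 11 higher and 7 to 15 lower. Of 22 WT calls, 17 held in all 14 alternatives and 5 were lost in 1 or more (Cnp, Ugt8a, Ppp1r14a, Ndrg1 and Bcas1). Of 20 Syt14 KO calls, 14 held and 6 were lost in 1 or more (Cnp, Ugt8a, Myrf, Gpr37, Ppp1r14a and Enpp6).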

Other observations

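Outside the 35 genes, those whose level within groups followed the mean of the 30 mature members most closely, among 12053 genes of at least 5 CPM over 12 libraries, included Fhdc1 (r = 0.98, rho = 0.88), Epb41l3, a band 4.1 protein of axon-glia contact (r = 0.97, rho = 0.92), the kinesin Kif13b (r = 0.97, rho = 0.92), Adssl1 (r = 0.97, rho = 0.97), Cdr2 (r = 0.97, rho = 0.94), Adamtsl4 (r = 0.96, rho = 0.99) and Gltp, a glycolipid transfer protein (r = 0.96, rho = 0.82). Without Syt14 KO hippocampi 1 and 3 their r values ran from 0.90 (Gltp) to 0.97 (Fhdc1). The most negative were Col23a1 (r = -0.93), Cdh4 (r = -0.90), Obsl1 (r = -0.90) and Cttn (r = -0.89). The libraries share animals, and these values are a description with no test.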
